A study of Oryctolagus cuniculus with 36 samples.

Results

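The 8 genes described here encode the enzymes of the urea cycle and the mitochondrial carriers that feed it: NAGS, CPS1, OTC, ASS1, ASL, ARG1, SLC25A15 and SLC25A13. They were taken by gene symbol from a table of 23394 rabbit genes. All 8 were found, each as 1 protein-coding entry of the RefSeq gene table, and all 8 were among the 14939 genes tested after a filter on low counts. RNA was sequenced from rabbit liver in a series on gene correction by CRISPR/Cas9 in newborn animals with hereditary tyrosinemia type I, a disease caused by loss of FAH, the hydrolase that ends tyrosine breakdown. Sample titles gave 3 groups, the libraries labelled FA, the libraries labelled FK, and WT. The labels do not spell out FA or FK and give no age, strain, dose or time. All 36 samples, WT included, carry the same description as a rabbit model of the disease. All livers were dissociated with trypsin before the RNA was extracted.

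Each group held 12 libraries in 3 numbered sets of 4. The 4 libraries of a set were summed to 1 replicate, so n = 3 per group throughout. A library held 11.7 to 22.5 M counts and a replicate 53.2 to 78.6 M. The labels tie neither libraries nor sets to separate animals, so each p-value reflects the variation among sets alone, which could be technical. Levels are CPM, counts per M counts of the replicate after TMM scaling, and they are not corrected for gene length, so they are compared between groups and never between genes. FAH, which checks the labels, was at 25.7, 24.7 and 19.6 CPM in FA and 16.4, 11.8 and 14.6 CPM in FK, against 237, 271 and 218 CPM in WT. Its log2 change was -3.37 in FA against WT and -4.08 in FK against WT (adjusted p = 0.00183 and 0.000466, edgeR).

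The FK replicates did not all resemble each other, and FK replicate 3 was closer to FA and to WT than to the rest of its group. For FAH, FK replicate 3 was among the FK values and below all FA replicates. Whether the labels of the FK replicates are right was not tested. FK replicates 1 and 2 lay at 109 and 122 on the first principal component, which held 62.1% of the variance, and the other 7 replicates lay between -38.0 and -26.2. Across genes, FK replicate 3 correlated at 0.972 to 0.978 with the FA replicates and at 0.957 to 0.961 with the WT replicates, and at only 0.879 with FK replicate 1 and 0.847 with FK replicate 2. Markers of blood-forming cells, of cell division and of fetal liver moved with this split. The 13 erythroid markers summed to 117 to 267 CPM in FA, to 914, 2317 and 158 CPM in FK replicates 1, 2 and 3, and to 44.3 to 112 CPM in WT. Of these, GATA1, AHSP and RHAG were at 0 in an FA replicate, and RHAG also in an FK and a WT replicate. The sums in FA and FK replicate 3 were above those of WT, but most single markers were not. The median erythroid marker lay at -0.67, -0.59 and -1.04 log2 units from its WT mean in FA, and at 4.07, 5.39 and -0.73 in FK. For FA against WT the log2 difference was below 0 for 11 of the 13. The 8 neutrophil markers summed to 18.9 to 41.2 CPM in FA, to 1195, 2057 and 27.8 CPM in FK, and to 16.5 to 27.7 CPM in WT. The 10 cell division markers summed to 31.6 to 42.5 CPM in FA, to 349, 752 and 38.1 CPM in FK, and to 28.9 to 36.5 CPM in WT. The 5 fetal liver markers summed to 102 to 1028 CPM in FA, to 1043, 2621 and 297 CPM in FK, and to 3.69 to 8.15 CPM in WT, so they were also high in FA and FK replicate 3. The 8 T and NK cell markers summed to 4.05 to 8.70 CPM in FA, to 0.735, 2.52 and 2.94 CPM in FK, and to 7.59 to 9.84 CPM in WT. The 6 B and plasma cell markers summed to 28.5 to 37.6 CPM in FA, to 3.58, 5.61 and 29.3 CPM in FK, and to 84.1 to 98.1 CPM in WT. The part of these cells in the results was not tested. The 10 hepatocyte markers were abundant in every replicate, with sums of 250021 to 292200 CPM in FA, 286018, 188612 and 276577 CPM in FK, and 214168 to 281220 CPM in WT. Albumin makes up much of this sum, and single markers differed in direction. The median marker lay 1.18, 0.86 and 0.89 log2 units above its WT mean in FK. APOA1 and TTR are named after their values were seen. APOA1 rose in FK against WT (log2 change 5.59, adjusted p = 0.0404, edgeR), and TTR stood at -1.21 (adjusted p = 0.214). In bulk liver RNA, fewer cells of a type and less RNA per cell cannot be told apart. For these reasons each result below is given by replicate and, where FK replicate 3 decides it, also without that replicate. FK replicate 3 was singled out from these same data, so a call gained by leaving it out is no independent support. With any other replicate left out, 0 of the 8 urea cycle genes were called in each comparison.

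The urea cycle turns ammonia, which is toxic to the brain, into urea that the kidney excretes, and in mammals the liver is the organ that runs it in full. It begins in the mitochondrion, where ammonia and bicarbonate form carbamoyl phosphate and then citrulline, and it ends in the cytosol, where citrulline and aspartate lead through argininosuccinate to arginine, urea and ornithine. Fumarate, which FAH also releases from tyrosine, leaves the cycle at the argininosuccinate lyase step. Carriers in the inner mitochondrial membrane return ornithine to the matrix and supply aspartate to the cytosol. Hepatocytes around the portal vein carry most of the cycle.

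NAGS showed the largest difference among the 8 genes. It makes N-acetylglutamate, without which carbamoyl phosphate synthetase is inactive. NAGS was at 64.7, 86.5 and 58.1 CPM in FA, at 12.8, 19.4 and 42.9 CPM in FK, and at 85.0, 90.4 and 66.8 CPM in WT. All 3 FK replicates were below all FA and all WT replicates, and FK replicate 3 stood closest to them. The FK mean of 25.0 ± 15.8 CPM (SD, n = 3) was 31.0% of the WT mean of 80.7 ± 12.4 CPM. The log2 difference of FK from WT was -1.69 (SE 0.41, 95% interval -2.62 to -0.75). It narrowly missed the threshold of 0.05 (adjusted p = 0.0518, edgeR quasi-likelihood test, Benjamini-Hochberg over all genes). DESeq2 called the same difference, at an adjusted p of 0.00181. FA exceeded FK by 1.48 on the log2 scale (SE 0.41, 95% interval 0.55 to 2.41, adjusted p = 0.115). FA and WT overlapped, with a log2 difference of -0.21 (SE 0.40, adjusted p = 0.909). Without FK replicate 3, NAGS passed the test in both comparisons with FK. It was then higher in FA than in FK by 2.13 (adjusted p = 0.000668) and lower in FK than in WT by 5.08-fold, a log2 change of -2.34 (adjusted p = 0.000425). In that fit 34.5% of all genes were called for FA against FK and 34.9% for FK against WT. With FK replicate 1 or FK replicate 2 left out instead, NAGS did not pass for FK against WT (adjusted p = 0.132 and 0.131, edgeR).

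CPS1, the synthetase that NAGS's product switches on and the step that fixes ammonia, did not share that pattern. CPS1 was at 4865, 3578 and 5011 CPM in FA, at 7128, 5576 and 4327 CPM in FK, and at 4648, 5379 and 5014 CPM in WT. All 3 groups overlapped, and the FK replicates alone spread from below all WT replicates to above them. The log2 difference of FK from WT was 0.18, with a 95% interval of -0.73 to 1.09 (adjusted p = 0.809). That of FA from WT was -0.16 (interval -1.07 to 0.75, adjusted p = 0.934), and that of FA from FK was -0.34 (interval -1.25 to 0.57, adjusted p = 0.645). From the lowest to the highest replicate CPS1 spanned 1.99-fold, against 7.04-fold for NAGS.

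OTC, which joins carbamoyl phosphate to ornithine to make citrulline, was low in FK replicates 1 and 2. It was at 564, 236 and 495 CPM in FA, at 93.6, 113 and 325 CPM in FK, and at 309, 353 and 399 CPM in WT. FK replicate 3 fell within the WT range and FA replicate 2 lay below it, so FK overlapped with both other groups. The FK mean of 177 ± 128 CPM was 50.1% of the WT mean of 354 ± 45.3 CPM (SD, n = 3). The log2 difference was -0.998 for FK against WT (SE 0.51, adjusted p = 0.244), 1.28 for FA against FK (SE 0.51, adjusted p = 0.196) and 0.29 for FA against WT (SE 0.51, adjusted p = 0.902). Without FK replicate 3, OTC passed in both comparisons with FK, at 2.08 for FA over FK (adjusted p = 0.00304) and -1.80 for FK against WT (adjusted p = 0.00605). The FK level was then 3.47-fold lower than that of WT.

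**Figure D1:**
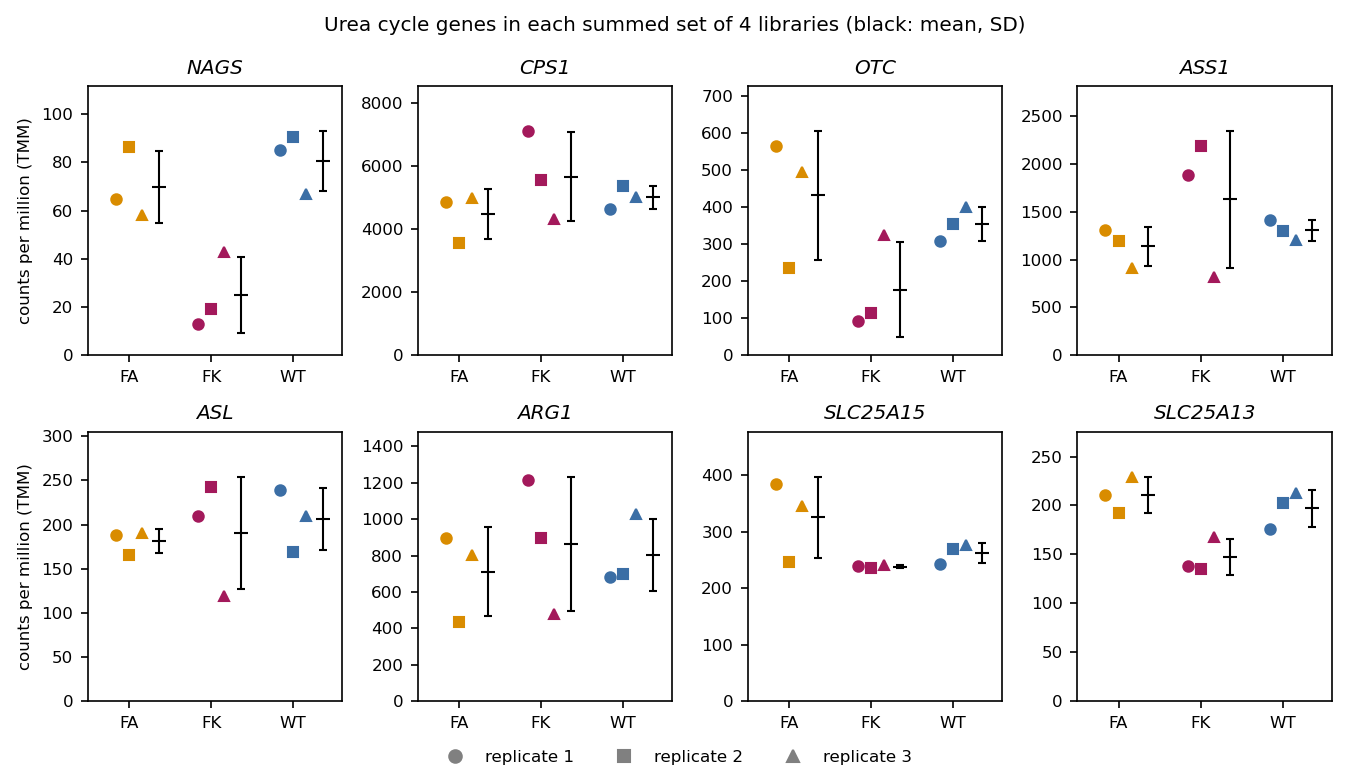
Level of each of the 8 urea cycle genes in FA, FK and WT, in TMM-scaled CPM on linear axes that start at 0. Each point is 1 replicate of 4 summed libraries, its shape gives the replicate number, and the bars are the mean and SD of 3 replicates. NAGS lay lower in all 3 FK replicates than in any FA or WT replicate, while for OTC FK replicates 1 and 2 lay low, at 93.6 and 113 CPM, and FK replicate 3 did not.

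The 2 carriers differed less. SLC25A13 (citrin) exports aspartate from the mitochondrion in exchange for glutamate, and its loss causes citrullinemia in humans. It was at 211, 193 and 229 CPM in FA, at 139, 135 and 168 CPM in FK, and at 176, 202 and 213 CPM in WT. Every FK replicate lay below every FA and WT replicate, although the gap between FK replicate 3 and WT replicate 1 was small. The log2 difference was 0.52 for FA against FK (SE 0.20, 95% interval 0.06 to 0.97, adjusted p = 0.184). For FK against WT it was -0.42 (SE 0.20, interval -0.87 to 0.03, adjusted p = 0.214), and FA and WT overlapped at 0.10 (SE 0.20, adjusted p = 0.918). Without FK replicate 3, the FA level was higher than that of FK by 0.64 (adjusted p = 0.0331), and FK against WT stood at -0.55 (adjusted p = 0.0584).

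SLC25A15 (ORC1), the carrier that exchanges ornithine for citrulline, was at 385, 246 and 345 CPM in FA, at 239, 236 and 241 CPM in FK, and at 243, 268 and 277 CPM in WT. The FK replicates were nearly alike, at 238 ± 2.61 CPM (SD, n = 3), unlike those of NAGS or OTC. They lay just under the lowest FA and WT replicates, and the highest 2 values of all were in FA. The log2 difference was 0.45 for FA against FK (SE 0.23, adjusted p = 0.289), -0.14 for FK against WT (SE 0.23, adjusted p = 0.735) and 0.31 for FA against WT (SE 0.23, adjusted p = 0.710).

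In the cytosol, ASS1 condenses citrulline with aspartate, a step often taken as limiting for the cycle's flux. ASS1 was at 1312, 1198 and 916 CPM in FA, at 1884, 2183 and 821 CPM in FK, and at 1416, 1296 and 1202 CPM in WT. The FK group held the 2 highest replicates and also the lowest, so that its SD was 716 CPM, against 204 CPM in FA and 107 CPM in WT. The log2 difference was -0.51 for FA against FK (SE 0.40, adjusted p = 0.475), 0.32 for FK against WT (SE 0.40, adjusted p = 0.647) and -0.19 for FA against WT (SE 0.40, adjusted p = 0.920). Without FK replicate 3, ASS1 passed for FA against FK, where it was lower in FA (log2 change -0.81, adjusted p = 0.0355). FK against WT, at 0.62, did not pass (adjusted p = 0.0894).

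ASL splits argininosuccinate into arginine and fumarate. ASL was at 188, 166 and 190 CPM in FA, at 210, 242 and 119 CPM in FK, and at 239, 169 and 209 CPM in WT. FK replicate 3 was the lowest of the 9 and FK replicate 2 the highest, and the groups overlapped. The log2 differences were -0.07 for FA against FK, -0.11 for FK against WT and -0.18 for FA against WT, each with an SE of 0.29. The adjusted p was 0.907, 0.834 and 0.887 in that order. ARG1, the arginase that releases urea, was at 897, 435 and 802 CPM in FA, at 1214, 898 and 481 CPM in FK, and at 680, 700 and 1030 CPM in WT. FA replicate 2 and FK replicate 3 were the lowest and FK replicate 1 the highest, and all groups overlapped. The log2 differences were -0.28, 0.11 and -0.18 in the same order of comparisons (SE 0.43 each, adjusted p = 0.728, 0.898 and 0.932). The intervals of ARG1 ran from -1.25 to 0.69 for FA against FK and from -0.86 to 1.07 for FK against WT, so differences of up to about 1 log2 unit lie within them.

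**Figure D2:**
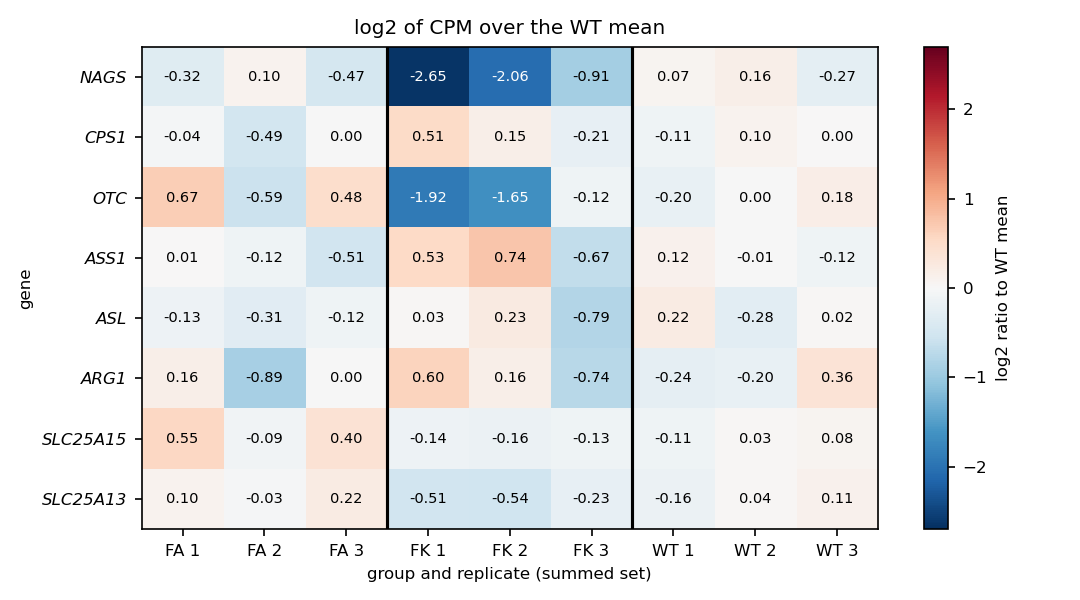
Level of each gene in each replicate as a log2 ratio to the mean of the 3 WT replicates, with FA columns left, FK in the middle and WT right. Blue cells are below and red cells above the WT mean. FK replicates 1 and 2 are blue for NAGS and OTC and red for CPS1, ASS1 and ARG1, whereas FK replicate 3 is below the lowest WT replicate for 7 of the 8 genes.

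Read across the 8 genes, the 3 FK replicates departed from WT in different ways. In FK replicates 1 and 2, 4 of the 8 genes lay below all WT replicates (NAGS, OTC, SLC25A15 and SLC25A13) and 3 lay above all of them. Of all genes tested, 37.8% and 39.1% lay below all WT replicates in these 2 replicates, and 40.0% and 39.8% above. CPS1 and ASS1 were among the high genes in both, with ARG1 in replicate 1 and ASL in replicate 2. In FK replicate 3, 7 of the 8 lay below all WT replicates and 0 above, OTC being the exception, against 33.2% of all genes below and 34.2% above. The FA replicates varied too, with 1, 5 and 2 of the 8 below all WT replicates and 2, 0 and 3 above. Of all genes, 32.5%, 31.9% and 33.7% were below in FA replicates 1, 2 and 3, and 32.5%, 32.7% and 33.2% above. Summed over the 8 genes, the level was 8487, 6137 and 8047 CPM in FA, 10920, 9402 and 6525 CPM in FK, and 7796, 8459 and 8411 CPM in WT. This sum rests mostly on CPS1, the most counted of the 8.

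As a set, the 8 genes held no call in any comparison under the main test. For FA against FK, edgeR called 0 of the 8 and 0% of all genes. At an unadjusted p under 0.05 there were 3 of the 8 (NAGS, OTC and SLC25A13, all higher in FA), against 21.9% of all genes, and DESeq2 called 2 (NAGS and SLC25A13), against 11.1% of all genes. For FK against WT, edgeR called 0 of the 8 and 4.77% of all genes. At an unadjusted p under 0.05 there was 1 of the 8 (NAGS, lower in FK), against 26.9% of all genes, and DESeq2 called 1 (NAGS), against 16.9%. For FA against WT, edgeR called 0 of the 8 and 0.167% of all genes. The count at an unadjusted p under 0.05 was 0, against 10.2% of all genes, and DESeq2 called 0 as well, against 2.18%. The last 2 comparisons share the WT replicates. The median log2 difference of the 8 was 0.19 for FA against FK, -0.13 for FK against WT and -0.17 for FA against WT, beside -0.02, 0.05 and 0.00 over all genes. Voom on all libraries, in which the set was a random effect, called 3 of the 8 for FA against FK and 3 for FK against WT (NAGS, OTC and SLC25A13 in each), against 17% and 19.2% of all genes. These 2 comparisons share the FK replicates, so their calls are not independent. It called 0 for FA against WT, against 3.44%.

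The overlap of the replicates was counted in the same way. For FA against FK, 3 of the 8 did not overlap (NAGS, SLC25A15 and SLC25A13, all higher in FA), and of all genes 17.2% did not overlap, 8.24% with FA higher and 8.99% with FA lower. For FK against WT, which shares the FK replicates, NAGS, SLC25A15 and SLC25A13 were lower in every FK replicate, and of all genes 27.3% did not overlap, 13.4% with FK lower. For FA against WT, 0 of the 8 were free of overlap, against 24.9% of all genes. Without FK replicate 3, 4 of the 8 were called for FA against FK, with NAGS, OTC and SLC25A13 higher and ASS1 lower in FA, against 34.5% of all genes. Then 2 of the 8 (NAGS and OTC) were called lower for FK against WT, against 34.9% of all genes, so the members' share was near the background. For FA against WT the count was 0 of the 8, against 1.6% of all genes.

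**Figure D3:**
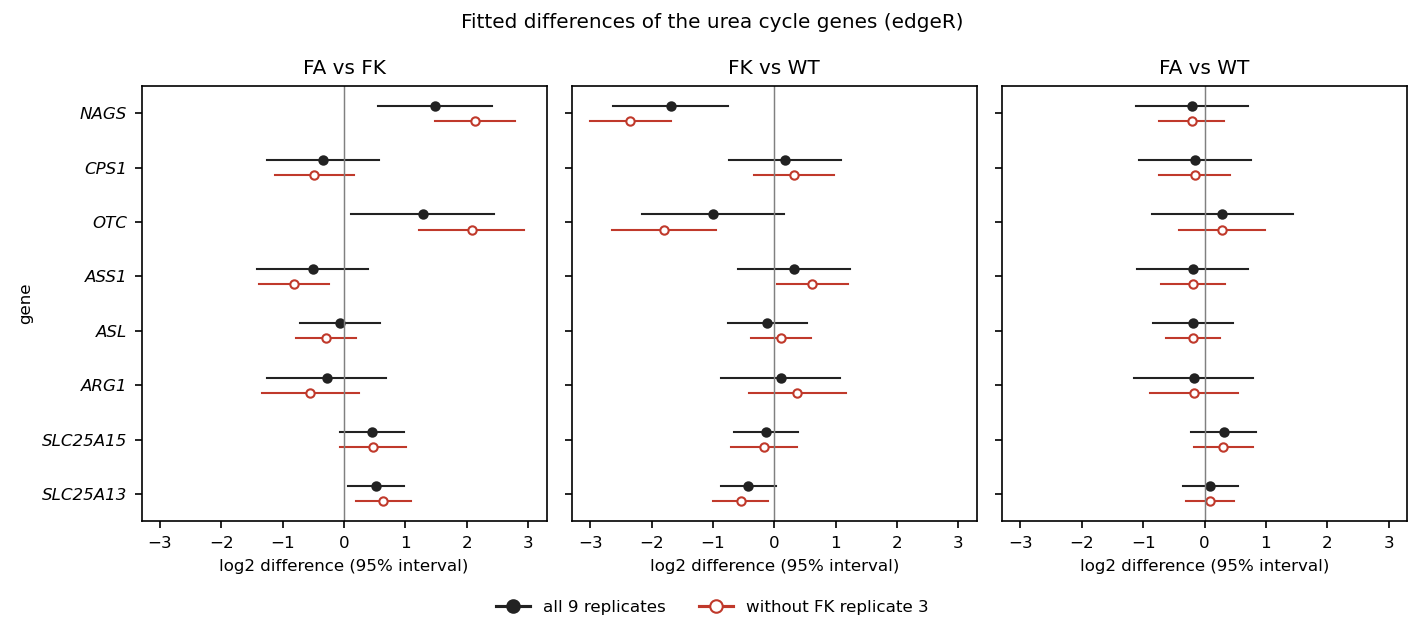
Fitted log2 differences of the 8 genes with 95% intervals, for FA against FK, FK against WT and FA against WT, each from all 9 replicates and again without FK replicate 3. Values right of 0 are higher in the group named at the start of the panel title. The FA against WT estimates lie between -0.21 and 0.31, and the NAGS and OTC estimates move most when FK replicate 3 is left out.

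Because blood-cell markers differed between the FK replicates, the levels were also set against the hepatocyte markers of the same replicate, an alternative added after the data were seen. It rests on the sum of markers that, as given above, did not move together. On that scale NAGS was at 68.0%, 106.3% and 69.1% of the WT mean in FA, at 13.8%, 31.5% and 47.6% in FK, and at 121.9%, 105.2% and 72.9% in WT. NAGS thus remained below WT and FA in all 3 FK replicates on that scale. OTC was at 138%, 67.3% and 136.7% of the WT mean in FA, at 23.4%, 42.7% and 84.0% in FK, and at 103%, 95.5% and 101.4% in WT. ASS1 in FK ranged from 56.4% in replicate 3 to 219.7% in replicate 2. SLC25A13 in FK was at 61.9%, 91.6% and 77.7%, and the lowest FA and WT replicates were at 92.2% and 96.8%, so FK still lay below both groups, with FK replicate 2 close to FA. SLC25A15 lost its separation on that scale, with 126.1%, 94.3% and 127.9% in FA, 79.8%, 119.5% and 83.3% in FK, and 108.4%, 97.3% and 94.3% in WT, so that FK replicate 2 lay above every WT replicate. Under this scaling edgeR again called 0 of the 8 in each comparison. The part that blood-cell RNA plays in the unscaled differences was not tested further.

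Across the 9 replicates the genes fell into groups that varied together, given here as a description. The replicates share normalization and the split within FK, so each r is given again over the 7 replicates other than FK 1 and FK 2. OTC and SLC25A13 had the highest r, 0.92 over 9 and 0.66 over 7. CPS1 and ARG1 correlated at 0.86 over 9 and 0.80 over 7, and ASS1 and ASL at 0.74 and 0.71. These pairs, and the 2 carriers with each other (0.72 and 0.77), kept their direction without FK 1 and FK 2. NAGS turned in direction with OTC, at 0.81 over 9 and -0.36 over 7, and with ASS1, at -0.58 and 0.85. Its r with CPS1 was -0.72 and -0.02. OTC turned with CPS1 (-0.49 and 0.70) and with ARG1 (-0.25 and 0.79), and ARG1 with SLC25A13 (-0.18 and 0.68), while OTC with ASS1 was at -0.75 and -0.07. The split into 2 blocks over 9 replicates thus rests on FK 1 and FK 2.

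**Figure D4:**
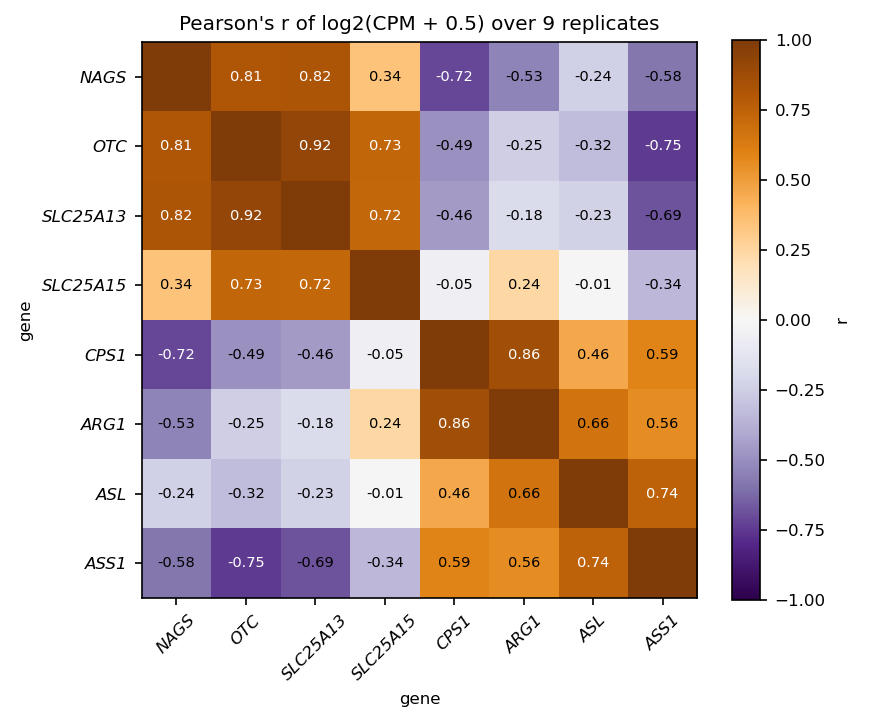
Pearson's r between the 8 genes over the 9 replicates, computed on log2(CPM + 0.5). NAGS, OTC, SLC25A15 and SLC25A13 form a block of positive r, as do CPS1, ASS1, ASL and ARG1, and r between the blocks is near 0 or negative for most pairs. Without FK 1 and FK 2 this split was lost, with r of 0.70 for CPS1 and OTC and 0.79 for OTC and ARG1.

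Among 6528 named genes with a mean of at least 10 CPM, those most like each member were found by r over the 9 replicates. They were SELO for NAGS (r = 0.99), PNRC2 for CPS1 (0.99), SESN1 for OTC (0.99), ECI1 for ASS1 (0.98), PHGDH for ASL (0.90), ADORA1 for ARG1 (0.95), ETFDH for SLC25A15 (0.93) and AK3 for SLC25A13 (0.98). Over the 7 replicates without FK 1 and FK 2 these r lay between 0.93 and 0.98. The 5 genes most like the mean profile of the 8 were DNAAF2 (0.93), ACP6 (0.89), PDCL3 (0.89), SLC35C2 (0.87) and HINT1 (0.83). They were picked as the highest of many, so the values describe these replicates only.

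Genes that supply the cycle or draw on it were taken from lists drawn up by function. Of 15 genes of ammonia, glutamine and glutamate metabolism, edgeR called 0 in each comparison. At an unadjusted p under 0.05 there were 8 for FA against FK, 7 for FK against WT and 2 for FA against WT, beside 21.9%, 26.9% and 10.2% of all genes. The smallest p belonged to SDS, serine dehydratase, for FA against FK, with a log2 difference of -5.16 (adjusted p = 0.115). SDS was at 24.3, 12.4 and 44.7 CPM in FA, at 1362, 1493 and 57.6 CPM in FK, and at 143, 120 and 133 CPM in WT. FK replicates 1 and 2 were above and FK replicate 3 below every WT replicate. For FK against WT the smallest p was that of GPT2, the mitochondrial alanine aminotransferase (1.43, adjusted p = 0.0735), and for FA against WT that of UROC1, urocanate hydratase of histidine breakdown (1.49, adjusted p = 0.258).

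Of 13 tested genes that use arginine, ornithine, proline or polyamines, edgeR also called 0 in each comparison, with 5, 5 and 2 at an unadjusted p under 0.05 for FA against FK, FK against WT and FA against WT, beside the same 21.9%, 26.9% and 10.2% of all genes. AGMAT had the smallest p for FK against WT (-1.50, adjusted p = 0.0727), at 187, 128 and 121 CPM in FA, 36.0, 35.8 and 107 CPM in FK, and 165, 164 and 177 CPM in WT. All FK replicates of AGMAT were below all others. SAT1, which acetylates polyamines, had the smallest p for FA against FK (-1.30, adjusted p = 0.115), and OAT, ornithine aminotransferase, for FA against WT (-1.25, adjusted p = 0.308). GATM, which takes arginine for creatine synthesis and was chosen after its values were seen, was at 619, 599 and 529 CPM in FA, at 86.1, 45.3 and 1009 CPM in FK, and at 678, 451 and 914 CPM in WT. In FK replicates 1 and 2 it was below every other replicate, and in FK replicate 3 above every other.

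Of 14 carriers of amino acids and of the mitochondrion, 2 rose in FK against WT, both at the plasma membrane, against 4.77% of all genes called. SLC38A2, a sodium-coupled transporter of neutral amino acids, was at 25.8, 34.1 and 34.9 CPM in FA, at 151, 98.7 and 65.6 CPM in FK, and at 22.9, 22.2 and 43.8 CPM in WT. All FK replicates were above all others, and the log2 rise over WT was 1.83 (SE 0.37, adjusted p = 0.0408, edgeR). SLC7A1, the cationic amino acid transporter CAT1 that imports arginine and is scarce in adult mammalian liver, was at 0.253, 0.389 and 0.318 CPM in FA, at 6.73, 17.8 and 0.507 CPM in FK, and at 0.463, 0.354 and 0.454 CPM in WT. Its log2 rise of 4.29 (SE 1.01, adjusted p = 0.0491) came from FK replicates 1 and 2, with FK replicate 3 barely above WT. The calls of SLC38A2 and SLC7A1 were lost when any replicate other than FK replicate 3 was left out (adjusted p = 0.0653 to 0.173). They were also lost with only the 2 groups fitted (0.113 for SLC38A2 and 0.127 for SLC7A1) and under hepatocyte marker scaling (0.0514 and 0.0644). SLC25A12 (aralar), the counterpart of citrin in muscle and brain, was chosen after its values were seen. It was at 1.09, 0.664 and 1.15 CPM in FA, at 23.9, 19.9 and 0.929 CPM in FK, and at 2.06, 1.29 and 1.39 CPM in WT. It was high only in the 2 FK replicates in which SLC25A13 was lowest. Opposite moves are common there, since 40.0% and 39.8% of all genes lay above all WT replicates in FK replicates 1 and 2, and 37.8% and 39.1% below. A link between the 2 carriers was not tested. Of the carriers, 0 were called for FA against WT (0 at an unadjusted p under 0.05, against 10.2% of all genes) and 0 for FA against FK (8 at an unadjusted p under 0.05, against 21.9%).

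Of 11 genes listed as regulators of the urea cycle, 1 rose in FK against WT, against 4.77% of all genes called. Most of the list stood the other way, with 9 of the 11 below 0 and a median log2 difference of -0.33, beside 0.05 over all genes. PPARGC1A, the fasting-induced coactivator of hepatic metabolism, was at 18.97, 17.1 and 18.5 CPM in FA, at 37.3, 29.1 and 23.5 CPM in FK, and at 9.90, 9.89 and 14.9 CPM in WT. The groups did not overlap, and the log2 rise of FK over WT was 1.37 (SE 0.23, adjusted p = 0.0314). That of FA over WT was 0.65 (adjusted p = 0.396). The FK call too was lost on leaving out any replicate except FK replicate 3 (adjusted p = 0.0525 to 0.139), and with only the 2 groups fitted (0.0965). CEBPA, a transcription factor of hepatocytes, was at 210, 199 and 152 CPM in FA, at 16.9, 26.4 and 81.8 CPM in FK, and at 264, 241 and 112 CPM in WT. All FK replicates of CEBPA were below all others, as for NAGS, with log2 differences of 2.17 for FA against FK (adjusted p = 0.115) and -2.30 for FK against WT (adjusted p = 0.0555). The 6 genes that handle fumarate and the aspartate shuttle held 0 calls in each comparison, with 0 at an unadjusted p under 0.05 as well. The smallest p there belonged to FH, fumarate hydratase, for FA against FK (0.62, adjusted p = 0.282) and to MDH1, cytosolic malate dehydrogenase, for FK against WT (0.55, adjusted p = 0.272) and FA against WT (0.42, adjusted p = 0.694).

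Without FK replicate 3 these lists held more calls for FK against WT. Then 5 rose and 3 fell of 15 ammonia genes, 5 rose and 3 fell of the 15 arginine and ornithine genes tested in that fit, 6 rose and 1 fell of 14 carriers, 2 rose and 2 fell of 6 fumarate genes, and 1 rose and 5 fell of 11 regulators. The share of all genes called was 34.9% in that fit.

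**Figure D5:**
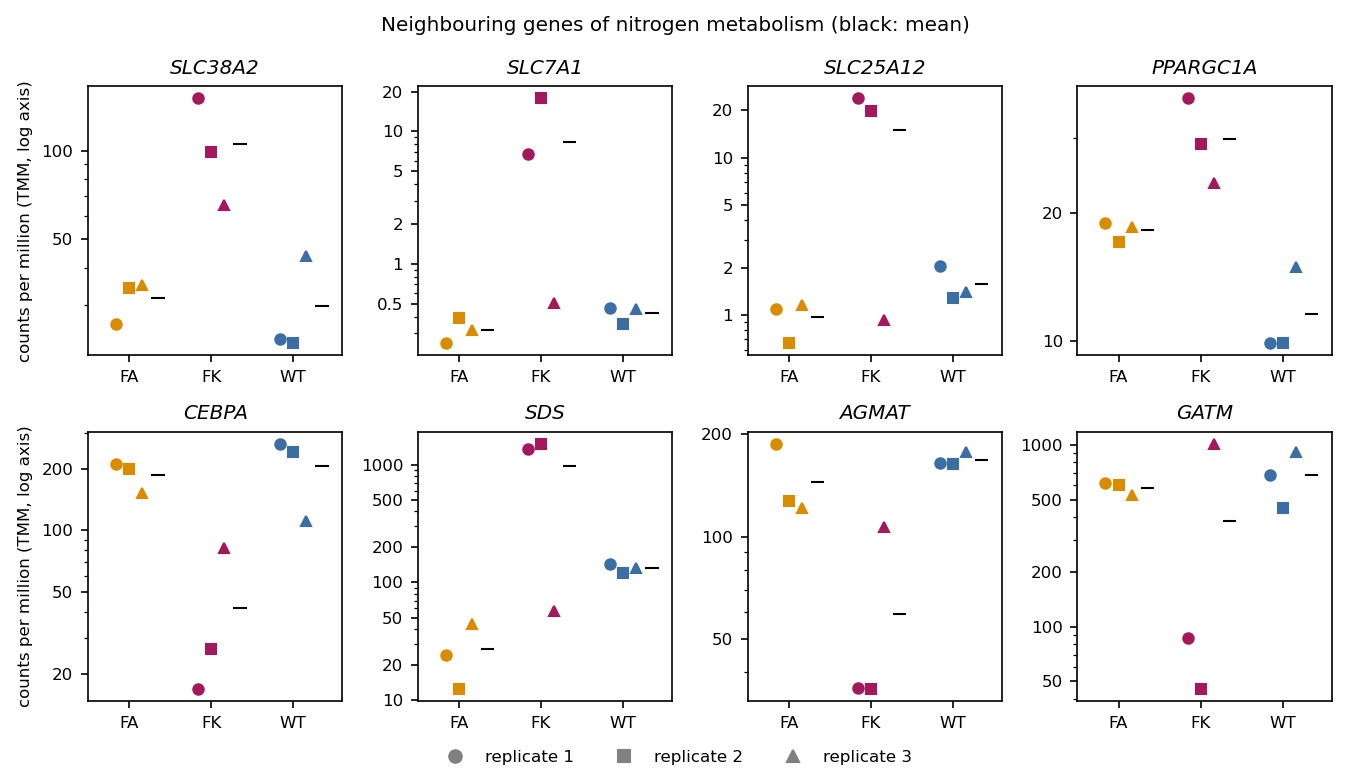
Level of 8 genes of nitrogen metabolism around the cycle in FA, FK and WT, in TMM-scaled CPM on log axes. Points are replicates, shaped by replicate number, and black bars are means. SLC38A2 and PPARGC1A are high in all 3 FK replicates, whereas SLC7A1, SLC25A12 and SDS are high, and GATM low, in FK replicates 1 and 2 but not in FK replicate 3.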

How the data were processed

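RNA of 36 rabbit liver libraries (12 each of FA, FK and WT) was measured by sequencing. The values are estimated counts per gene, deposited by the authors as whole numbers in 1 table. The submitters' processing notes name Salmon 0.14.1. For the genome build, the rounding and the use of strand, the sources used here give nothing, so a gene overlapped by another on the opposite strand is uncertain. The 8 genes matched the RefSeq gene table of mOryCun1.1, used for names only.

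The members and lists were chosen with earlier results of these data known. The 4 libraries of each titled set were summed to a replicate, since within a set log CPM correlated at a median r of 0.992 and between sets of a group at 0.968. In R 4.3.3, edgeR 4.0.16 took the 9 replicates in a joint fit (TMM, filterByExpr by group), and 14939 genes received quasi-likelihood F tests. Calls are Benjamini-Hochberg adjusted p under 0.05 over all genes tested, and "rose" and "fell" are used for calls. The replicate spread was a biological coefficient of variation of 45.2%. The spread of each gene was fitted over all 3 groups together, so the split within FK also enters the intervals of FA against WT. For CPS1, the SE of FA against WT was 0.40 with all replicates and 0.26 without FK replicate 3. At this depth every member had at least 803 counts per replicate, so the spread between replicates and not counting error limits precision. Standard errors and 95% intervals come from the F statistic and its degrees of freedom. Scripts were tested on simulated data in which all 9 replicates shared 1 spread per gene, taken from the joint fit. The split within FK was not reproduced, so the simulated rates may not hold for these groups. In the simulated data the main test called 1% to 2% of 2-fold changes and 61% to 69% of 8-fold changes, depending on the comparison. A missing call is therefore not a finding of no change.

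Named genes were the members, FAH, the called genes of each pathway list (or the gene with the smallest p where none was called), and the genes with the highest r. Genes outside the rule are marked. Alternatives were DESeq2 1.42.0, RLE size factors, other filters, the 2 groups compared alone, the set number as a replicate block, 36 libraries as separate samples, limma 3.58.1 voom with the set as a random block, each replicate left out, and hepatocyte marker scaling, which was added after the data were seen. Replicates of different groups that share a set number were not treated as paired in the main fit. No sequences are shown, because none were used here. Python 3.11.15 with matplotlib 3.10.9 made the figures.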

Additional observations from a re-analysis of the deposited data

How the results depend on the processing

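With DESeq2, 1778 genes were called for FA against FK, 2720 for FK against WT and 341 for FA against WT, beside 0, 712 and 25 in edgeR; of the 8 urea cycle genes 2, 1 and 0 were called, beside 0 in each. Fitting only the 2 groups compared gave 43 genes for FK against WT and 235 for FA against WT. The set number as a replicate block gave 47 and 3 genes and 0 of the 8. The labels do not say that shared numbers pair replicates. Of the 9 replicates, 0 correlated best with their own number in both other groups, although some did so in 1 of them. The median r was -0.0068 for the same number (-0.125 to 0.128) and -0.0014 for different numbers (-0.135 to 0.183). With 3 sets per group this cannot settle whether sets were paired. With the block the FK against WT calls of SLC38A2, SLC7A1 and PPARGC1A were lost (adjusted p = 0.0962, 0.1248 and 0.0824). Treating the 36 libraries as separate samples gave 6984, 7372 and 4330 genes and 6, 3 and 1 of the 8, but libraries of a set are not independent. Voom with the set as a random block gave 2169, 2448 and 440 genes and 3, 3 and 0 of the 8. Hepatocyte marker scaling gave 146 genes for FK against WT and 15 for FA against WT. Leaving out each replicate gave 0 to 5324 genes for FA against FK, 22 to 5396 for FK against WT and 2 to 247 for FA against WT, with 0 to 4, 0 to 2 and 0 of the 8; the highest FK counts came without FK replicate 3. The cause of these moves was not tested. RLE factors and both other filters left the counts within 1.5 times. No direction of a called value reversed. Over all alternatives the NAGS difference of FK from WT ran from -2.34 to -1.38 (adjusted p = 1.29e-08 to 0.170), that of OTC from -1.80 to -0.69 (0.00131 to 0.530) and that of SLC25A13 from -0.55 to -0.36 (4.04e-06 to 0.438). The lowest adjusted p of NAGS and of OTC came from the 36 libraries as separate samples, which overstates the evidence because libraries of a set are not independent. For FK against WT, SLC25A13 was called only with the 36 libraries as separate samples and in the voom fit. No fit of summed sets called it.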

Other observations

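Urea synthesis is a periportal task and glutamine synthesis a pericentral one, so markers of both zones were read beside the 8 genes. Of 7 periportal markers, edgeR called 0 for FA against FK, 1 for FK against WT (SOX9, lower) and 0 for FA against WT, with 5, 3 and 3 at an unadjusted p under 0.05, against 21.9%, 26.9% and 10.2% of all genes. PCK1, the entry enzyme of glucose synthesis, was at 10.8, 34.0 and 53.6 CPM in FA, at 1606, 1278 and 79.6 CPM in FK, and at 23.1, 103 and 621 CPM in WT. HAL, histidase, was at 114, 79.2 and 143 CPM in FA, at 274, 362 and 102 CPM in FK, and at 121, 56.0 and 87.7 CPM in WT. Both were highest in FK replicates 1 and 2, where NAGS and OTC were lowest. Neither passed the test for FK against WT (adjusted p = 0.346 for PCK1 and 0.0945 for HAL, edgeR). In these replicates 40.0% and 39.8% of all genes lay above all WT replicates and 37.8% and 39.1% below. Of 7 pericentral markers, edgeR called 0 for FA against FK, 1 for FK against WT (LGR5, lower) and 0 for FA against WT. At an unadjusted p under 0.05 there were 0, 1 and 2, against 21.9%, 26.9% and 10.2% of all genes. GLUL, which captures the ammonia that escapes the cycle, was at 148, 192 and 109 CPM in FA, at 285, 405 and 105 CPM in FK, and at 362, 248 and 282 CPM in WT. All FA replicates of GLUL were below all WT replicates, with a log2 difference of -0.99 that did not pass (adjusted p = 0.497). GLUL does not stand for its list. The 7 pericentral markers summed to 4717 to 11186 CPM in FA, to 879, 892 and 4636 CPM in FK, and to 3409 to 4526 CPM in WT. Their log2 difference was below 0 for 7 of 7 in FK against WT and for 6 of 7 in FA against WT. The zone genes named here were chosen after their values were seen.

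The 4 libraries of a set gave close values for the 8 genes in most sets, with coefficients of variation of 0.50% to 30.3%. The widest were ARG1 in FK replicate 3, with libraries between 307 and 667 CPM, and NAGS in FK replicate 1, at 29.9%. Of the tyrosine breakdown genes, 3 of 8 were called lower and 0 higher for FK against WT (FAH, HPD and QDPR), against 4.77% of all genes called. With FK replicate 3 left out, 6 of the 8 were called lower and 1 higher, against 34.9% of all genes.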
